A study of Mus musculus with 6 samples.

Results

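The phosphoinositide 3-kinases (PI3Ks) of class I were examined here as 10 genes, chosen by name from the mRNA table, which holds 21954 genes in all. They are 4 catalytic subunit genes (Pik3cd, Pik3cg, Pik3ca and Pik3cb), 5 regulatory subunit genes (Pik3r1, Pik3r2, Pik3r3, Pik3r5 and Pik3r6) and the adaptor gene Pik3ap1. Each name matched 1 gene identifier. RNA came from thymus of C57BL wild-type mice aged 5 weeks. The irradiated group (3 libraries) had received 6 Gy of X-rays and was collected after 24 h, and the control group (3 libraries) had received no irradiation. No transgene or other agent is named for either group. Per the labels each group comprised 3 mice, and the p-values describe the spread among these 6 libraries.

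Class I PI3Ks phosphorylate the membrane lipid PIP2 to PIP3, which recruits kinases such as AKT. Class IA enzymes pair a catalytic subunit (alpha, beta or delta) with an SH2-domain regulatory subunit and answer to tyrosine-phosphorylated receptors and adaptors. The class IB enzyme pairs the gamma catalytic subunit with p101 or p84 and answers to G protein-coupled receptors. The alpha and beta forms are found in most tissues, while delta and gamma are enriched in leukocytes. In mice, thymocyte development depends on delta and gamma together, with signals from the pre-T cell receptor and from chemokine receptors feeding into them.

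Abundance was deposited as FPKM, fragments normalised to transcript length and to the fragments mapped in the library, so levels can be compared between genes per length. Depth, estimated from the smallest step in the values, was 24.4 to 25.6 M fragments (M, 10 to the power of 6) in irradiated libraries and 21.9 to 23.2 M in controls. Fold changes below are limma estimates on log2(FPKM + 0.1), irradiated minus control, with Benjamini-Hochberg adjustment over all 14001 genes that averaged at least 0.5 FPKM, and a change is called at an adjusted p under 0.05. Of all tested genes 63.2% were called, 42.4% as higher and 20.9% as lower, so a call on its own is common here. The median log2 fold change of all genes was 0.40 in the deposited FPKM, 0.30 after scaling to equal summed FPKM, 0.023 after median-ratio scaling and -0.066 after quantile normalization. After quantile normalization 3501 genes (25.0%) were called higher and 4403 (31.4%) lower; the counts were 4655 (33.2%) and 4558 (32.6%) after median-ratio scaling and 5522 (39.4%) and 2902 (20.7%) after scaling to summed FPKM. Changes of the members are therefore also given as a distance from that median.

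Markers of several cell types differed between the groups, and their counts stand beside 42.4% higher and 20.9% lower among all genes. All 12 markers of double-positive thymocytes (Rag1, Cd8a and others) were lower, with a summed level of 94.6 to 192 FPKM in irradiated thymus and 2851 to 3263 FPKM in controls. All 12 macrophage markers were higher (11 after quantile normalization), with sums of 1623 to 1893 FPKM in irradiated thymus and 228 to 329 FPKM in controls. Of 8 fibroblast markers 8 were higher, with sums of 697 to 757 FPKM in irradiated thymus and 71.0 to 94.6 FPKM in controls. Of 10 endothelial markers 9 were higher (8 after quantile normalization), with sums of 53.4 to 139 FPKM in irradiated thymus and 33.4 to 42.5 FPKM in controls. Of 8 B cell markers 3 were higher and 1 lower (3 and 4 after quantile normalization), with sums of 22.5 to 51.8 FPKM in irradiated thymus and 16.6 to 21.2 FPKM in controls. No gene of these lists was at 0 in all 3 libraries of a group. Airway markers summed to 3041 FPKM in irradiated replicate 2, against 45.3 and 44.7 FPKM in irradiated replicates 1 and 3 and 3.28 to 4.06 FPKM in controls. Fat markers summed to 80.7, 1545 and 650 FPKM in irradiated libraries 1 to 3, against 18.3 to 40.1 FPKM in controls. Skeletal muscle markers summed to 2.51, 168 and 31.4 FPKM in irradiated libraries, against 0.752 to 0.871 FPKM in controls. Every irradiated library was above every control for airway, fat and muscle markers, with irradiated replicate 1 the nearest to the controls for fat and muscle. Thymic epithelial markers were higher in 7 of 9 (6 after quantile normalization or median-ratio scaling), with sums of 603 to 890 FPKM in irradiated thymus and 233 to 392.3 FPKM in controls. In such bulk tissue, fewer cells of a type and less RNA per cell cannot be told apart, and the part these shifts play in the changes below was not tested. Without irradiated replicate 2, each of the 10 members kept its direction and its side of the threshold, and the same held without irradiated replicate 3. No fit left out both of these libraries, and irradiated replicate 1 was kept in each. The irradiated libraries kept were still above the controls for airway, fat and muscle markers, so these fits cannot show how the members depend on that signal.

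All 10 members passed the filter on low values. In irradiated thymus 6 were called higher (Pik3ap1, Pik3r6, Pik3cb, Pik3r2, Pik3r3 and Pik3cd), 2 lower (Pik3cg and Pik3r5) and 2 neither (Pik3ca and Pik3r1), beside 42.4% higher and 20.9% lower among all genes. Of the 5 leukocyte-enriched members (Pik3cd, Pik3cg, Pik3r5, Pik3r6 and Pik3ap1) 3 were higher and 2 lower, and the median estimate was 0.65 on the log2 scale. Of the 5 ubiquitous members 3 were higher and 0 lower, with a median of 0.79, against 0.40 over all genes. The order of these medians depends on the scaling: after quantile normalization it was 0.57 for leukocyte-enriched and 0.30 for ubiquitous members, and after median-ratio scaling 0.27 and 0.42. After either, 2 leukocyte-enriched members were higher and 2 lower, and 2 ubiquitous members were higher and 1, Pik3ca, lower. The leukocyte-enriched members thus spread in both directions, from -0.91 to 2.98, and the ubiquitous ones from -0.32 to 1.80. The groups did not overlap in 8 of the 10 members (80.0%), beside 70.8% of all genes. Quantile normalization and median-ratio scaling each gave 4 higher and 3 lower members, and scaling to summed FPKM 6 and 2. In the authors' deposited table, made with DESeq2, 4 members were higher and 2 lower, where 46.4% of its genes passed, 32.5% as higher and 14.0% as lower.

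**Figure D1:**
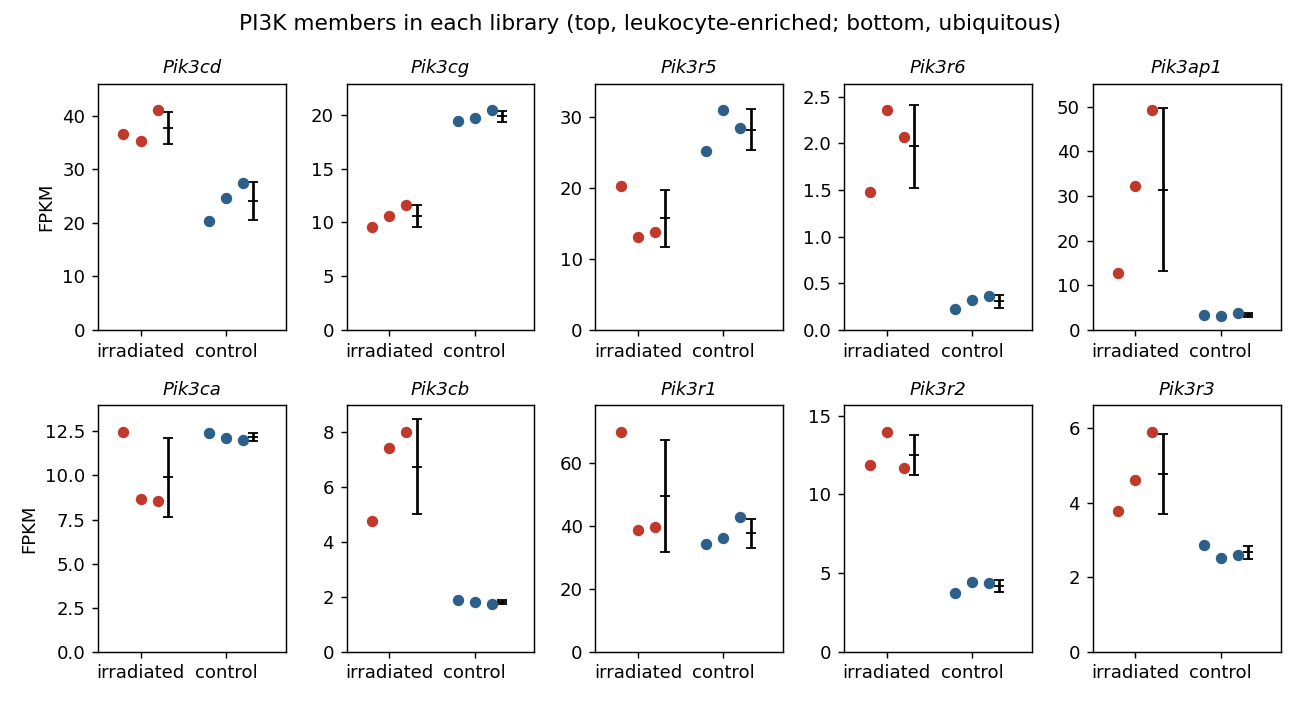
FPKM of each member in every library (dots, irradiated left of control), with the mean and SD of the 3 libraries (bars); the top row holds leukocyte-enriched members and the bottom row ubiquitous ones. Irradiated libraries lie above controls for Pik3cd, Pik3r6, Pik3ap1, Pik3cb, Pik3r2 and Pik3r3, below them for Pik3cg and Pik3r5, and the groups overlap for Pik3ca and Pik3r1.

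Sequence upstream of the start was read from RefSeq windows on GRCm38.p6, which cover 9 of the 10 members. Those of Pik3cg and Pik3r5 are shown because they encode the catalytic and the more abundant regulatory subunit of 1 heterodimer and were the members called lower, and that of Pik3ap1 because it had the largest increase. Each is written 5′ to 3′ on the strand of the gene and ends just before the first annotated base of the gene (250 bases, or 246 for Pik3r5). Capitals mark matches on either strand to any of 6 motifs: GAGGAA (PU.1), TGTGGT (RUNX), CAGGTG and CAGCTG (E-boxes), GGGCGG (SP/KLF) and GTAAACA (FOXO). None of the motifs overlapped another in these windows.
Pik3cg (chr12:32208660-32208909, minus strand): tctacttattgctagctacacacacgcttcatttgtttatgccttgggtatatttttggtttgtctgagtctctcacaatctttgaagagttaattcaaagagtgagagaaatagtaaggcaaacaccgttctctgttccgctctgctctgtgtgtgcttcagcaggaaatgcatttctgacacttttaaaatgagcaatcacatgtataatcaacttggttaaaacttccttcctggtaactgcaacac
Pik3r5 (chr11:68431875-68432120, plus strand): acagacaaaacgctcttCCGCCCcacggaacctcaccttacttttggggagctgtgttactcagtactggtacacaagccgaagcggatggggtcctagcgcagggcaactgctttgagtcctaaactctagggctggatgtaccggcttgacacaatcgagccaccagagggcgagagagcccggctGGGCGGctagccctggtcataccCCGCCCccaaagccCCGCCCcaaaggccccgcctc
Pik3ap1 (chr19:41385103-41385352, minus strand): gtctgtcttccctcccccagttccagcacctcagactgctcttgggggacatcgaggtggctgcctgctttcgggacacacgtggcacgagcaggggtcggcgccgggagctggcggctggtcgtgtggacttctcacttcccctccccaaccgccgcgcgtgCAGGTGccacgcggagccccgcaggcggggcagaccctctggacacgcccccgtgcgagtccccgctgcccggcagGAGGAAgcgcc

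The 3 sequences differ in base composition. The Pik3cg sequence is 38.8% G and C and holds none of the motifs, the Pik3r5 sequence is 61.4% G and C with 4 GGGCGG matches, and the Pik3ap1 sequence is 71.2% G and C with 1 GAGGAA and 1 CAGGTG match. Over all 32851 windows of 250 bases before a start, the median was 52.4% G and C, and 32.7% held GGGCGG, 23.3% GAGGAA, 17.2% CAGGTG, 14.0% TGTGGT, 13.0% CAGCTG and 3.17% GTAAACA at least once. The table holds a second Pik3cg window for a start further into the gene (chromosome 12, 32208421 to 32208720), not printed, whose 250 bases before that start are 44.0% G and C with 2 GAGGAA matches and 1 GTAAACA match. These matches describe the letters only.

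Among the catalytic genes the leukocyte-enriched pair split. Pik3cd, the delta catalytic subunit (ENSMUSG00000039936, chromosome 4, 149649168 to 149702571, minus strand of GRCm38), measured 36.6, 35.3 and 41.1 FPKM in irradiated thymus, against 20.3, 24.7 and 27.4 FPKM in controls. Every irradiated library lay above every control. By limma the log2 difference was 0.65 ± 0.15 (SE, adjusted p = 0.00865), more than that of 56.7% of tested genes. It exceeded the median gene by 0.24 to 0.63 under the 4 scalings. The call was lost after median-ratio scaling (0.27, limma adjusted p = 0.140), and the authors' deposited table gives 0.38 (DESeq2 adjusted p = 0.337).

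Pik3cg, the gamma catalytic subunit (ENSMUSG00000020573, chromosome 12, 32173473 to 32208659, minus strand), moved the other way. It measured 9.54, 10.6 and 11.6 FPKM in irradiated thymus, against 19.4, 19.7 and 20.4 FPKM in controls. The groups were far apart and tight, with SDs of 1.03 and 0.537 FPKM. By limma the log2 difference was -0.91 ± 0.13 (SE, adjusted p = 0.000984), and 12.3% of tested genes had a lower one. Its distance from the median gene was -1.31 to -1.08 under the scalings.

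Pik3ca, the alpha catalytic subunit of most tissues (ENSMUSG00000027665, chromosome 3, 32397671 to 32468486, plus strand), measured 12.5, 8.69 and 8.54 FPKM in irradiated thymus, against 12.4, 12.1 and 12.0 FPKM in controls. Irradiated replicate 1 sat at the level of the controls and the other 2 irradiated libraries below it. Its log2 difference of -0.32 ± 0.18 (SE) was not called (limma adjusted p = 0.154). It was called as lower without irradiated replicate 1 (-0.50, limma adjusted p = 0.00688), after median-ratio scaling (-0.70, 0.0207) and after quantile normalization (-0.62, 0.0469). Its distance from the median gene was -0.72 to -0.56 under the scalings.

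Pik3cb, the beta catalytic subunit (ENSMUSG00000032462, chromosome 9, 99036654 to 99140621, minus strand), rose most among the catalytic genes. It measured 4.77, 7.44 and 8.02 FPKM in irradiated thymus, against 1.90, 1.80 and 1.75 FPKM in controls, a ratio of means of 3.72. All irradiated libraries were above all controls, with irradiated replicate 1 the lowest of the 3. The estimate was 1.80 ± 0.24 on the log2 scale (SE, adjusted p = 0.000686, limma), 1.06 to 1.41 more than the median gene.

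The leukocyte-enriched part of the catalytic pool overlapped between the groups. Pik3cd and Pik3cg together made up 74.3 ± 1.66% of the summed FPKM of the 4 catalytic genes in irradiated thymus and 75.8 ± 2.13% in controls (SD, n = 3 each), a difference of -1.46 percentage points, and the groups overlapped. Leaving out 1 library moved it to -0.718 (irradiated replicate 1), -2.36 (irradiated replicate 3), -2.60 (control replicate 1) or -0.500 (control replicate 3). Within that part the shares moved apart. Pik3cd accounted for 57.8, 56.9 and 59.3% in irradiated libraries, against 37.5, 42.4 and 44.5% in controls. Pik3cg accounted for 15.0, 17.0 and 16.8% in irradiated libraries, against 35.9, 33.7 and 33.2% in controls. Neither gene's shares overlapped between groups. In the ubiquitous part Pik3cb held 7.52, 12.0 and 11.6% in irradiated libraries, against 3.52, 3.08 and 2.84% in controls, and Pik3ca 19.7, 14.0 and 12.3% in irradiated libraries, against 23.0, 20.8 and 19.5% in controls. These shares and the ratios below do not move with 1 scaling factor per library, but quantile normalization does change them. It put Pik3cd at 0.57 and Pik3cb at 0.995 on the log2 scale, and Pik3r5 at -1.02 and Pik3r6 at 0.80, each relative to controls. Shares are levels of RNA, not of protein. The summed level of the 4 genes was 62.0 to 69.2 FPKM in irradiated thymus and 54.0 to 61.5 FPKM in controls.

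**Figure D2:**
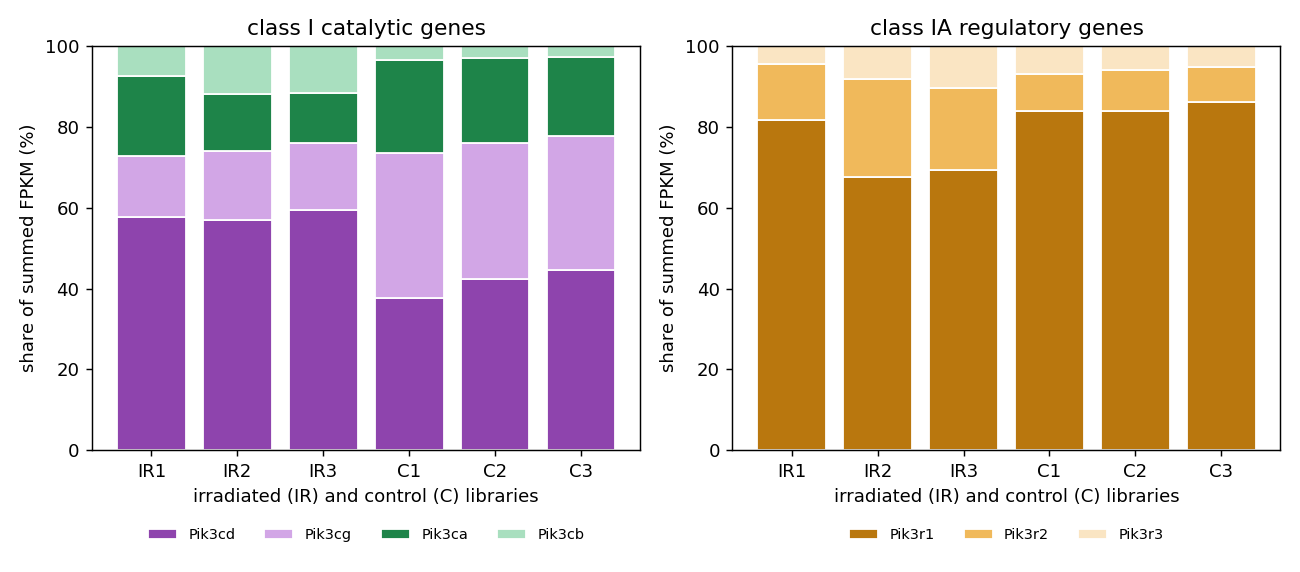
Share of each gene in the summed FPKM (per cent) of the 4 class I catalytic genes (left) and of the 3 class IA regulatory genes (right), 1 stacked bar per library, irradiated (IR) before control (C). Pik3cd takes 56.9 to 59.3% of the catalytic sum in irradiated libraries and 37.5 to 44.5% in controls, Pik3cg 15.0 to 17.0% and 33.2 to 35.9%, while Pik3cd plus Pik3cg stays between 72.8 and 77.7% in all 6.

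For ratios between members, an exact permutation test over the libraries (two-sided) was used, which with 3 against 3 cannot go below p = 0.1. Of the 5 ratios computed, the irradiated and control values did not overlap in any of them, so each had an exact p = 0.1, also after Benjamini-Hochberg adjustment over the 5. Among all single genes the groups did not overlap in 70.8%, and the share among other gene pairs was not computed. Pik3cd and Pik3ca recur among the 5 ratios, which are therefore not independent results. Pik3cd over Pik3ca was 3.94 ± 0.944 in irradiated thymus and 1.98 ± 0.328 in controls (SD, n = 3 each). Pik3cd over Pik3cb was 5.85 ± 1.60 in irradiated thymus and 13.4 ± 2.53 in controls, so delta gained on alpha while beta gained on delta. Pik3cg over Pik3ca was 1.11 ± 0.310 in irradiated thymus and 1.63 ± 0.0720 in controls, and in irradiated replicate 1 alone Pik3cg was below Pik3ca (0.764). Without that library the log2 difference of this last ratio was -0.34, against -0.59 with it.

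The class IB regulatory genes lie side by side and went in opposite directions. Pik3r5 encodes p101 (ENSMUSG00000020901, chromosome 11, 68432121 to 68497849, plus strand) and Pik3r6 encodes p84 (ENSMUSG00000046207, chromosome 11, 68503019 to 68552698, plus strand). Both are on the same strand, 5169 bases apart, with 0 other annotated genes wholly between them. Both proteins bind the gamma subunit and couple it to G protein beta-gamma dimers, p101 more strongly.

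Pik3r5 measured 20.3, 13.0 and 13.8 FPKM in irradiated thymus, against 25.2, 31.0 and 28.4 FPKM in controls. All irradiated libraries lay below all controls, with irradiated replicate 1 the nearest to them. The estimate was -0.86 ± 0.20 on the log2 scale (SE, adjusted p = 0.00747, limma), with a distance from the median gene of -1.27 to -0.96. Pik3cg, its catalytic partner, was at -0.91.

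Pik3r6 measured 1.48, 2.36 and 2.07 FPKM in irradiated thymus, against 0.229, 0.319 and 0.366 FPKM in controls. At the estimated depth this is about 118, 195 and 163 fragments in irradiated libraries and about 17, 24 and 26 fragments in controls, so the control level rests on few fragments. The ratio of means was 6.46. On the log2 scale the estimate was 2.34 ± 0.34 (SE, adjusted p = 0.000987, limma), and 2.65 with a pseudocount of 0.01 or 1.18 with a pseudocount of 1. After quantile normalization it was 0.80 and not called (limma adjusted p = 0.0586). Its distance from the median gene was 0.86 to 1.99.

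Together these changes brought the Pik3r5 over Pik3r6 ratio to 13.8, 5.53 and 6.70 in irradiated libraries, against 109.8, 97.1 and 77.7 in controls. Pik3r6 made up 11.7 ± 4.41% of the summed FPKM of the pair in irradiated thymus and 1.06 ± 0.188% in controls (SD, n = 3 each). Pik3r5 remained the more abundant of the pair in all 6 libraries. The mean log2 ratio differed by -3.56 between the groups (exact permutation p = 0.1, the smallest possible), by -3.95 to -3.29 when each library was left out in turn, and by -1.999 with a pseudocount of 1.

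**Figure D3:**
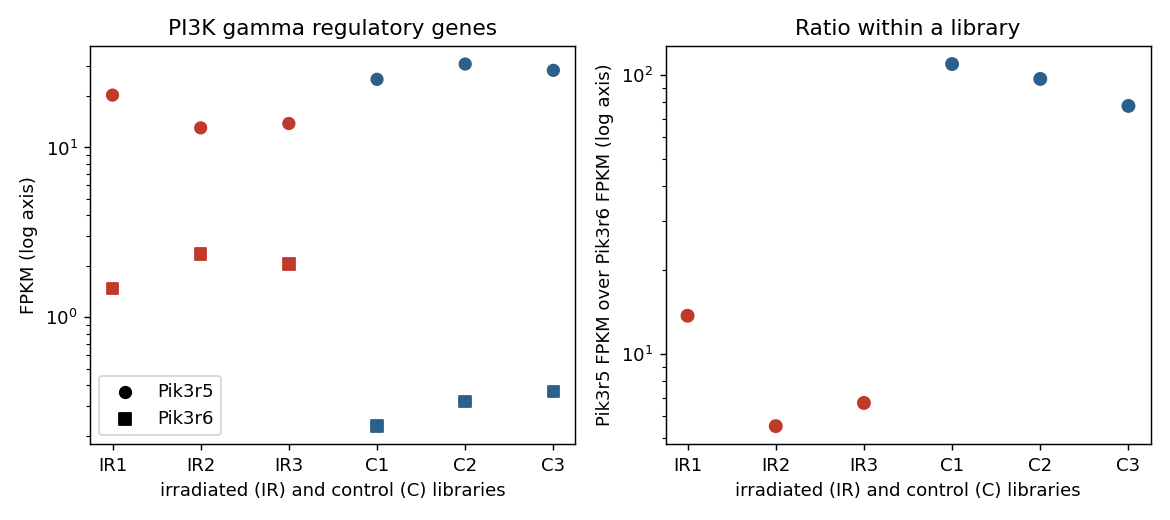
Left, FPKM (log axis) of Pik3r5 (circles) and Pik3r6 (squares) in each library, irradiated (IR, red) before control (C, blue); right, Pik3r5 FPKM divided by Pik3r6 FPKM (log axis) in the same libraries. The ratio lies between 5.53 and 13.8 in irradiated libraries and between 77.7 and 109.8 in controls.

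Among the class IA regulatory genes, the most abundant was not called and the others rose. Pik3r1 encodes p85 alpha and its shorter forms, which stabilise the catalytic subunits and hold them inactive until they bind phosphotyrosine (ENSMUSG00000041417, chromosome 13, 101680563 to 101768217, minus strand). It measured 69.8, 38.7 and 39.7 FPKM in irradiated thymus, against 34.1, 36.0 and 42.7 FPKM in controls. Only irradiated replicate 1 lay outside the range of the controls. By limma the log2 difference of 0.34 ± 0.25 (SE) was not called (adjusted p = 0.258). It was 0.065 without irradiated replicate 1 and -0.041 after median-ratio scaling, and its distance from the median gene was -0.064 to 0.37.

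Pik3r2, which encodes p85 beta (ENSMUSG00000031834, chromosome 8, 70768176 to 70776713, minus strand), measured 11.9, 14.0 and 11.7 FPKM in irradiated thymus, against 3.71, 4.42 and 4.33 FPKM in controls. The groups were clearly apart and all 3 irradiated libraries were alike. Its estimate of 1.57 ± 0.15 on the log2 scale (SE, adjusted p = 0.000223, limma) had the smallest adjusted p of the 10 members. It exceeded the median gene by 1.16 to 1.18 under the scalings.

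Pik3r3, which encodes p55 gamma (ENSMUSG00000028698, chromosome 4, 116221618 to 116303056, plus strand), measured 3.77, 4.62 and 5.90 FPKM in irradiated thymus, against 2.87, 2.52 and 2.60 FPKM in controls. The groups did not overlap, though irradiated replicate 1 came near the controls. On the log2 scale the estimate was 0.79 ± 0.21 (SE, adjusted p = 0.0149, limma). The call was lost without control replicate 2 (limma adjusted p = 0.0575) or control replicate 3 (0.0506) and after median-ratio scaling (0.104), the value was -0.050 after quantile normalization, and the authors' deposited table gives 0.59 (DESeq2 adjusted p = 0.170).

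In the pool of these 3 genes the share of Pik3r1 was lower and that of Pik3r2 higher in irradiated thymus. The summed level of the pool was 57.2 to 85.5 FPKM in irradiated thymus and 40.6 to 49.6 FPKM in controls. A lower share of Pik3r1 is thus not a lower level of it. Pik3r1 made up 81.7, 67.5 and 69.3% in irradiated libraries, against 83.8, 83.8 and 86.0% in controls, and Pik3r2 13.9, 24.4 and 20.4% in irradiated libraries, against 9.13, 10.3 and 8.73% in controls. Pik3r1 over Pik3r2 was 4.02 ± 1.65 in irradiated thymus and 9.07 ± 0.859 in controls (SD, n = 3 each; exact permutation p = 0.1, the smallest possible). Irradiated replicate 1, in which Pik3r1 was highest, had the ratio nearest to the controls (5.88).

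Pik3ap1 encodes BCAP, an adaptor of B cells and myeloid cells that recruits p85 to the membrane (ENSMUSG00000025017, chromosome 19, 41272377 to 41385102, minus strand). It measured 12.8, 32.2 and 49.2 FPKM in irradiated thymus, against 3.27, 3.06 and 3.81 FPKM in controls. Every irradiated library was well above the controls, but the irradiated libraries differed among themselves, with an SD of 18.2 FPKM around a mean of 31.4 FPKM. The ratio of means was 9.29, and the estimate of 2.98 ± 0.45 on the log2 scale (SE, adjusted p = 0.00124, limma) exceeded that of 92.3% of tested genes. It exceeded the median gene by 2.58 to 2.60 under the scalings. Macrophage markers summed to 1623, 1704 and 1893 FPKM in the same irradiated libraries, and B cell markers to 22.5, 51.8 and 41.3 FPKM. Dendritic cell markers summed to 78.5, 85.4 and 90.8 FPKM, against 27.7 to 30.9 FPKM in controls. Of these 8 markers 3 were higher and 0 lower (2 and 2 after quantile normalization). Neutrophil markers summed to 41.6, 416 and 166 FPKM, against 44.2 to 115 FPKM in controls, so irradiated replicate 1 was below every control. Of these 8 markers 3 were higher and 0 lower (2 and 0 after quantile normalization). Beside both marker counts, 42.4% of all genes were higher and 20.9% lower (25.0% and 31.4% after quantile normalization). The part of these cell types in the rise of Pik3ap1 was not tested.

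**Figure D4:**
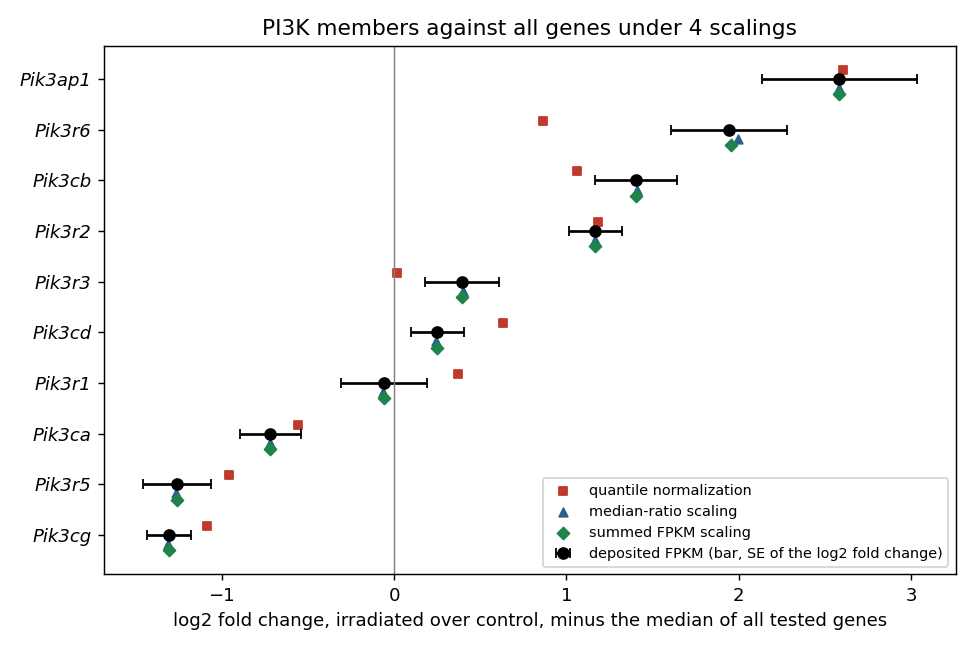
Log2 fold change of each member, irradiated over control, minus the median of all tested genes, in the deposited FPKM (black, bar is the SE of the log2 fold change) and after 3 other scalings between libraries. Pik3ap1, Pik3r6, Pik3cb and Pik3r2 lie 0.86 or more above the median of all genes and Pik3cg and Pik3r5 0.96 or more below it under every scaling drawn, while Pik3r1 and Pik3r3 lie between -0.064 and 0.40.

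The order of levels changed with these shifts. In irradiated thymus it ran from Pik3r1 (49.4 FPKM) through Pik3cd (37.7), Pik3ap1 (31.4), Pik3r5 (15.7), Pik3r2 (12.5), Pik3cg (10.6), Pik3ca (9.90), Pik3cb (6.74) and Pik3r3 (4.76) to Pik3r6 (1.97), all mean FPKM. In controls it ran from Pik3r1 (37.6 FPKM) through Pik3r5 (28.2), Pik3cd (24.1), Pik3cg (19.8), Pik3ca (12.2), Pik3r2 (4.15), Pik3ap1 (3.38), Pik3r3 (2.66) and Pik3cb (1.81) to Pik3r6 (0.305). In irradiated thymus the ranges of neighbours overlapped except between Pik3r2 and Pik3cg, Pik3ca and Pik3cb, and Pik3r3 and Pik3r6. In controls they overlapped only between Pik3r5 and Pik3cd, Pik3cd and Pik3cg, and Pik3r2 and Pik3ap1.

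Genes with the most similar pattern were sought among 9073 other genes averaging at least 5 FPKM, by the root-mean-square distance of log2 values centred on each gene's own mean over the 6 libraries. Nearest to Pik3cg, the member with the largest fall, were Hectd4 (distance 0.034), Ddx54 (0.040) and Snrnp70 (0.047). Nearest to Pik3ap1, the member with the largest rise, were S100a6 (0.063), the integrin gene Itgax (0.075) and the growth factor receptor gene Pdgfrb (0.114). Itgax measured 10.5, 25.0 and 39.3 FPKM in irradiated thymus, against 2.75, 2.47 and 2.71 FPKM in controls, with the same order of irradiated libraries as Pik3ap1. Nearest to Pik3ca, whose change was the smallest in size in the deposited FPKM (-0.32, against 0.34 for Pik3r1) but not after median-ratio scaling (-0.70, against -0.041), were Stxbp5 (0.027), Pggt1b (0.032) and Cab39 (0.044), each higher in irradiated replicate 1 than in irradiated replicates 2 and 3.

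**Figure D5:**
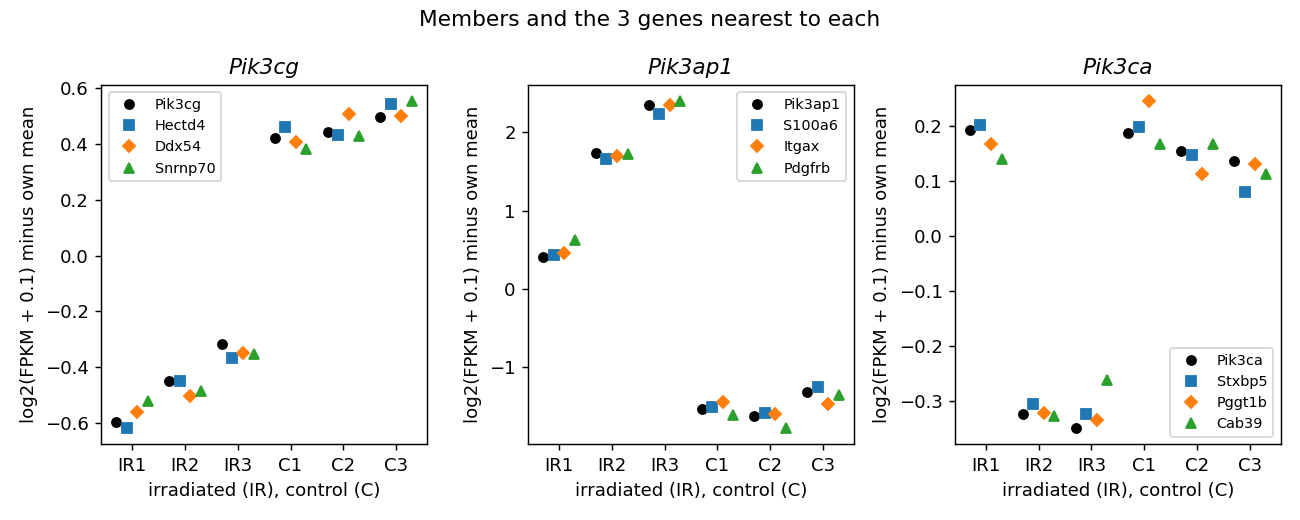
Log2(FPKM + 0.1) minus the gene's own mean over 6 libraries, for Pik3cg, Pik3ap1 and Pik3ca (black) and the 3 nearest genes of each, in irradiated (IR) and control (C) libraries. The irradiated values of Pik3ap1 and its neighbours differ by library, and Pik3ca and its neighbours are near the control level in irradiated replicate 1 alone.

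Noncoding transcripts of the same genes are listed in a separate lncRNA table, which holds 21 transcripts of 8 members, 2 of them at 0 in all libraries. Summed per gene, 9421 of the 23336 genes of that table averaged at least 0.5 FPKM and were tested. Of those tested 46.0% were called, 15.8% as higher and 30.1% as lower. The members tested were 6, and Pik3ca and Pik3r6 stayed under the filter. The Pik3cg transcripts measured 2.35, 1.03 and 1.25 FPKM in irradiated thymus, against 3.72, 3.07 and 3.22 FPKM in controls, a log2 fold change of -1.14 (limma adjusted p = 0.0213). Those of Pik3r5 measured 10.8, 3.90 and 4.46 FPKM in irradiated thymus, against 10.7, 17.1 and 11.9 FPKM in controls (-1.16, limma adjusted p = 0.0387), with irradiated replicate 1 at the level of a control. Those of Pik3ap1 measured 0.561, 1.28 and 1.98 FPKM in irradiated thymus, against 0.490, 0.205 and 0.436 FPKM in controls (1.43, limma adjusted p = 0.0451). These 3 changes had the sign of the coding gene, whose exons such transcripts can share. All 3 calls were lost in 5 of the 6 leave-one-out fits and held without irradiated replicate 1; the highest limma adjusted p was 0.0759 for Pik3cg, 0.127 for Pik3r5 and 0.149 for Pik3ap1. Pik3r2 (0.98, limma adjusted p = 0.124), Pik3cd (0.45, 0.162) and Pik3r1 (-0.19, 0.717) were not called. Of the transcripts with an adjusted p in the authors' deposited table, 7.17% passed, and of the member transcripts 1 of Pik3r6 did (log2 fold change 4.83, DESeq2 adjusted p = 0.0125), at 0.511, 0.0268 and 0.0949 FPKM in irradiated libraries, against 0, 0.0133 and 0.000709 FPKM in controls.

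The genes around the enzymes were described by lists of inputs, effectors and brakes. Of 30 receptors and adaptors that recruit class IA enzymes, 12 were higher and 11 lower, beside 42.4% and 20.9% of all genes, and the median estimate was 0.049 on the log2 scale. The largest decreases were those of Trat1, a T cell receptor-associated adaptor that binds p85 (2.12 ± 1.98 FPKM in irradiated thymus and 32.8 ± 3.33 FPKM in controls, SD, n = 3 each), and of the costimulatory receptor gene Cd28 (6.01 ± 1.93 FPKM in irradiated thymus and 47.5 ± 6.33 FPKM in controls). The largest increases were those of Pdgfrb, a receptor of mesenchymal cells (13.2 ± 7.39 FPKM in irradiated thymus and 1.24 ± 0.199 FPKM in controls), and of the docking adaptor gene Gab1 (14.8 ± 2.05 FPKM in irradiated thymus and 1.62 ± 0.242 FPKM in controls). After quantile normalization 10 of this list were higher and 15 lower, and after median-ratio scaling 10 and 14.

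Of 16 G protein subunits and Ras-family inputs, 6 were higher and 6 lower, with a median of 0.27, beside 42.4%, 20.9% and 0.40 for all genes, and quantile normalization gave 3 and 6 and median-ratio scaling 2 and 6. Without control replicate 1, 3 were higher. Rras rose most, at 34.3 ± 12.7 FPKM in irradiated thymus and 3.24 ± 0.490 FPKM in controls (SD, n = 3 each). Gng12, a G protein gamma subunit gene, was next by its estimate (1.74, limma adjusted p = 0.0342), but its groups overlapped, at 20.96, 4.85 and 21.5 FPKM in irradiated thymus, against 3.23, 5.76 and 2.99 FPKM in controls. Its call was lost in 4 of 6 leave-one-out fits and after quantile normalization and median-ratio scaling, and the estimate was 2.44 without irradiated replicate 2. The Ras activator gene Rasgrp1 of thymocytes fell to 18.6 ± 2.37 FPKM in irradiated thymus, against 74.4 ± 10.0 FPKM in controls, and Rras2 fell by 0.95 on the log2 scale.

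Of 28 effectors with domains that bind PI3K lipid products or compete for them, 12 were higher and 6 lower, with a median of 0.39, beside 42.4%, 20.9% and 0.40 for all genes, and quantile normalization gave 10 and 8 and median-ratio scaling 11 and 10. Txk, a Tec-family kinase gene of T cells, fell by 1.81 on the log2 scale, while Bmx of the same family, which endothelium expresses, rose (2.28), a call lost after quantile normalization (0.80, limma adjusted p = 0.0915). Phlda3, which competes with AKT for these lipids, had the largest rise (3.46). Of 10 phosphatases and inhibitors that limit PI3K signalling, 3 were higher and 1 lower, with a median of 0.065, beside the same 42.4%, 20.9% and 0.40, and median-ratio scaling gave 3 and 2 (also 2 lower without irradiated replicate 1). Inppl1, the widely expressed SHIP2 phosphatase, measured 16.1 ± 5.65 FPKM in irradiated thymus and 1.29 ± 0.173 FPKM in controls (SD, n = 3 each), and Inpp5j had an estimate of 2.04 on the log2 scale (limma adjusted p = 0.0257). The Inpp5j call was lost in 5 of 6 leave-one-out fits, with estimates of 1.54 to 2.67, and after quantile normalization (0.43). The count of lower members of this list was 0 in 5 of 6 leave-one-out fits.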

How the data were processed

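Thymus RNA (polyA RNA, TRIzol, NEBNext library kit, per the labels) was compared between 3 irradiated and 3 control libraries. The authors deposited FPKM per library for mRNA genes and for lncRNA transcripts, together with a log2 fold change, p-value and adjusted p-value; the submitters' processing notes name DESeq2 1.10.1 among the authors' tools. The sources used here do not give the aligner, the read counter, the annotation or whether counting used strand. Of mRNA-table transcripts found in GENCODE M21 (GRCm38), 99.79% have the same ends. Values repeat on every transcript line of a gene, so 1 value per gene was used. From the lncRNA file, 62 overflow lines were dropped, and its transcripts were summed per gene.

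The files hold FPKM, so limma 3.58.1 (R 4.3.3) with an abundance trend was fitted on log2(FPKM + 0.1) to genes averaging at least 0.5 FPKM, group only, as the design allowed for, and the code was checked on simulated data. Each table was tested alone. FPKM depends on the transcript length used, and its scaling shifts when a few genes take many reads. Depth was estimated as the most common smallest product of FPKM and length in genes with 1 transcript, taken as 1 fragment; it is no deposited count.

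The members and all lists were chosen with earlier results of these data known. Named genes are the 10 members, and in each pathway list the 2 largest rises and 2 largest falls among those called; for likeness, the 3 nearest genes of 3 members. Some genes that this rule names are not reported here. Alternatives were pseudocounts of 0.01 and 1, other filters and scalings, no trend, a replicate block and leaving out each library. Figures were drawn with matplotlib 3.10.9.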

Additional observations from a re-analysis of the deposited data

How the results depend on the processing

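Pik3ap1, Pik3cb, Pik3r2, Pik3cg and Pik3r5 kept their direction and call under every alternative run, the authors' deposited table included. The calls of Pik3cd, Pik3r6 and Pik3r3 and the missing call of Pik3ca changed as given above, and the log2 fold changes that turned sign were those of Pik3r1 after median-ratio scaling (-0.041) and Pik3r3 after quantile normalization (-0.050); the cause was not tested. None of the 5 ratios changed direction. Over all genes, 3501 were higher and 4403 lower after quantile normalization and 4558 lower after median-ratio scaling. In the lists, after median-ratio scaling 3 class II and III genes, 10 lipid-binding effectors and 2 phosphatases and inhibitors were lower and 2 G protein and Ras inputs higher. After quantile normalization 2 class II and III genes were lower and 3 G protein and Ras inputs higher. Without a filter 2 class II and III genes were higher, and with at least 1 FPKM in 3 libraries 1 was lower. Leaving out each library gave 1 to 2 class II and III genes higher and 0 to 1 lower, 3 to 7 G protein and Ras inputs higher and 0 to 2 phosphatases and inhibitors lower. The noncoding transcripts counted as higher, 1 gene, were 0 with a pseudocount of 0.01, with at least 1 FPKM in 3 libraries and with a replicate block, and 0 to 1 in leave-one-out fits. Those counted as lower, 2 genes, were 1 without a filter and 1 with a replicate block, and 0 to 2 in leave-one-out fits. Replicate numbers did not pair the libraries (correlation of deviations 0.060, -0.043 and 0.052 for numbers 1, 2 and 3), and a replicate block changed no call of the 10 members in the mRNA table, with 6 higher and 2 lower; over all genes it gave 5693 higher and 2662 lower. Depth limits Pik3r6 most, since its control values rest on 17 to 26 estimated fragments.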

Other observations

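The PI3Ks of classes II and III, which make other phosphoinositides and serve membrane traffic and autophagy, were mostly not called in the same limma fit (Benjamini-Hochberg adjusted p). Of 8 such genes and partners 7 were tested, and 1 was higher and 0 lower (2 and 1 without irradiated replicate 1). Among all tested genes 42.4% were higher and 20.9% lower. The median estimate of the 7 was 0.020 on the log2 scale, beside 0.40 over all genes. After quantile normalization 1 was higher and 2 lower, beside 25.0% and 31.4% of all genes. After median-ratio scaling the counts were 1 and 3, beside 33.2% and 32.6%. Pik3c3, the class III catalytic subunit, measured 13.5, 16.2 and 14.9 FPKM in irradiated thymus, against 13.7, 14.4 and 15.8 FPKM in controls, so the groups overlapped (0.020 ± 0.13, SE, limma adjusted p = 0.904). Its regulatory subunit gene Pik3r4 measured 12.6, 17.8 and 15.0 FPKM in irradiated thymus, against 9.96, 11.0 and 13.3 FPKM in controls (0.40, limma adjusted p = 0.0936). Of the partners that direct the class III enzyme, Atg14, needed for autophagosome formation, rose, at 10.8, 8.07 and 8.33 FPKM in irradiated thymus, against 4.22, 4.11 and 4.09 FPKM in controls (limma adjusted p = 0.00129), and Uvrag, which acts in endosome traffic, was at 19.7, 16.1 and 21.3 FPKM in irradiated thymus, against 28.1, 26.7 and 22.2 FPKM in controls (-0.43, limma adjusted p = 0.0510).

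Among class II genes Pik3c2a measured 31.8, 20.5 and 25.6 FPKM in irradiated thymus, against 20.6, 24.8 and 20.5 FPKM in controls (0.22, limma adjusted p = 0.331). As with Pik3r1, irradiated replicate 1 was the highest library. Pik3c2b averaged 3.86 ± 1.16 FPKM in irradiated thymus and 4.23 ± 0.159 FPKM in controls (SD, n = 3 each), and Pik3c2g stayed under the filter, at 0.0489 FPKM on average in irradiated thymus and 0.00909 FPKM in controls.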
